A study of Mus musculus with 9 samples.

Results

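The genes followed here build the actin cytoskeleton or attach it to the membrane in RAW264.7 cells. They are Actb and Actg1, which encode the cytoplasmic actins, Pfn1 and Cfl1, which encode the monomer-binding protein profilin and the filament-severing protein cofilin, Marcks and its relative Marcksl1, which encode membrane-bound actin-binding proteins, Fscn1 and Lcp1, which encode the filament bundlers fascin and L-plastin, Msn, which encodes the membrane linker moesin, and Vim, which encodes the intermediate filament protein vimentin. These 10 genes were chosen by symbol from the 54532 genes of the deposited table. RAW264.7 is an established, virus-transformed mouse macrophage line of wild-type genotype, so the values describe that line. Control cells were untreated. The LPS group received lipopolysaccharide, a component of the bacterial outer membrane, at 1 μg/ml for 6 h. The third group, LPS + G-CDs, received the same LPS for the same time together with 400 μg/ml of G-CDs, carbon dots made from Glycyrrhiza. The titles of these libraries name G-CDs, while their treatment label names LPS alone. Cells given G-CDs without LPS were not analysed here. Each group held 3 libraries. Nothing in the labels or methods says that these came from separate cultures, so p-values measure the spread between libraries only, which may be technical.

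Macrophages change shape, spread and take up particles by rebuilding a thin layer of actin filaments under the plasma membrane. Actin monomers are exchanged by profilin and cofilin, filaments are bundled by fascin and plastins, and the layer is held to the membrane by moesin and by MARCKS proteins, whose basic effector domain binds acidic lipids, calmodulin and actin. Genes of cytoplasmic actins are known targets of serum response factor, which binds a CArG box and takes part in sensing the pool of free actin.

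Depth was similar in all 9 libraries, with 14752400 to 17312255 reads on genes, and all 8 macrophage markers examined, Csf1r, Cd68, Adgre1, Lyz2, Cd14, Ptprc, Itgam and Spi1, were at 1 FPKM or more in every library. FPKM scales the fragments counted on a gene to its length and to library size. The summed FPKM of 6 fibroblast and smooth muscle markers stayed between 0.0476 and 0.699, that of 4 epithelial markers between 0 and 0.0574, and that of 2 T and B cell markers between 0 and 0.0694. Together, the 10 genes made up 0.902% to 1.007% of the FPKM sum in control libraries, 1.695% to 1.777% in LPS libraries and 1.392% to 1.427% in LPS + G-CDs libraries, so the ranges of the 3 groups did not overlap. RNA was measured in bulk, and a smaller share of cells making a transcript cannot be told apart from less of it per cell.

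Stretches upstream of Marcksl1 and Actg1, which had the largest changes with LPS in log2(FPKM + 1) among the matched genes, are shown because they carry motifs named for actin gene control or basal transcription. They come from the RefSeq promoter table of GRCm38.p6, which matched 8 of the 10 genes and held no entry for Actb or Marcks. In the Actg1 stretch, capitals mark a CCAAT box at -120 and a CArG box at -90, counted from the RefSeq start. In the Marcksl1 stretch, capitals mark ATTGG, the CCAAT box read from the other strand, at -28. The Actg1 stretch is chr11:120348546-120348625 on the minus strand and the Marcksl1 stretch is chr4:129513451-129513580 on the plus strand, both written from 5′ to 3′.
Actg1: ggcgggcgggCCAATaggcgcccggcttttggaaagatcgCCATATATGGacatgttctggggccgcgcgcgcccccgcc
Marcksl1: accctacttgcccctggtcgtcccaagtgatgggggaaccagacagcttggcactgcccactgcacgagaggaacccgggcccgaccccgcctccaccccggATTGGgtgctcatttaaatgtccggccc
The CArG box was found, on either strand, in the 250 upstream bases of 1.47% of 32851 promoters and, among the 8 matched genes, in Actg1 alone. ATTGG, searched on both strands, was in 33.85% of promoters and in 4 of the genes, Vim, Marcksl1, Actg1 and Cfl1. The NF-kB consensus, a motif bound by an LPS-activated factor family, was in 7.25% of promoters and only in Vim among the genes, where 2 of its 3 matches overlap. TATAAA was in 12.37% of promoters and in Vim and Fscn1, and TGACNNNGC, the core bound by Nrf2, was in 10.16% of promoters and in none of the 8 genes. A match describes letters in a sequence and was not set against binding or activity.

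Between LPS and control, 5 of the 8 genes present in every group were higher and 1 was lower. Marcksl1, Actg1, Msn, Actb and Lcp1 were higher with LPS, Vim was lower, and Pfn1 and Cfl1 did not pass the test. The filter kept genes at 1 FPKM or more in at least 3 libraries, and Fscn1 did not reach it. Marcks reached it only through the treated libraries, where it was high, so it had to differ from control, and it is left out of the counts against control and described by its reads. The test was limma on log2(FPKM + 1) with Benjamini-Hochberg adjustment over all 11585 genes kept, with a threshold of 0.05. Among all genes kept, 15.8% were higher and 15.6% were lower by the same rule. The groups did not overlap for 6 of the 8 genes, against 52.5% of all genes. The median log2 fold change of the 8 genes was 0.92, beside 0.02 over all genes. Rescaling every library to a common sum (TPM) moved the median of all genes to -0.21. It left 3 genes higher and 1 lower, with Msn and Lcp1 no longer past the threshold. Under TPM 8.76% of all genes were higher and 26.8% lower. Quantile normalisation left Marcksl1 and Actg1 higher and Vim lower, where 14.1% of all genes were higher and 20.3% lower. The median under it was 0.38 for the 8 genes and -0.06 for all genes. Without a filter Actb and Msn lost their calls. Relative to the median of all genes, the 7 genes with a positive difference stayed positive under TPM, and Cfl1 was at -0.08 under quantile normalisation.

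**Figure D1:**
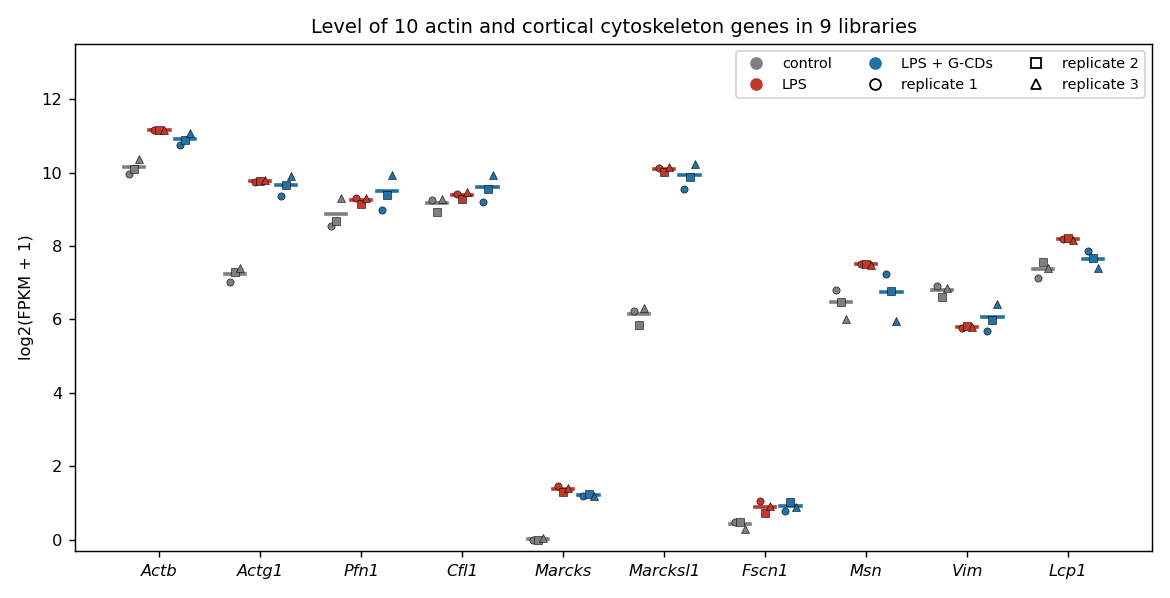
Each point is the level of a gene in 1 of 9 libraries as log2(FPKM + 1), and each bar is the value at the group's mean FPKM, for control (grey), LPS (red) and LPS + G-CDs (blue). The 3 LPS libraries lay closer together than the 3 LPS + G-CDs libraries for 8 genes, the exceptions being Marcks and Fscn1.

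The cytoplasmic actins rose to different degrees. Actb (ENSMUSG00000029580, chr5:142903115-142906754, minus strand, GRCm38) was at 999, 1087 and 1314 FPKM in control libraries, at 2285, 2290 and 2305 FPKM with LPS, and at 1724, 1902 and 2155 FPKM with LPS + G-CDs. All 3 groups were separate from each other, and LPS was the highest. Means were 1134 ± 162, 2293 ± 10.7 and 1927 ± 217 FPKM (SD, n = 3 each). With LPS the log2 fold change was 1.03 (SE 0.19, limma adjusted p = 0.0037), a rise of 2.04-fold in FPKM + 1. Actb is often used as a reference transcript that is taken to be constant. Without the filter on low values the same log2 fold change had an adjusted p of 0.16, and after quantile normalisation it was 0.21 (adjusted p = 0.24).

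Actg1 (ENSMUSG00000062825, chr11:120345690-120348542, minus strand) rose more. Its FPKM was 129, 154 and 168 in control libraries, 852, 875 and 896 with LPS, and 659, 805 and 950 with LPS + G-CDs. Treated libraries did not overlap the control libraries, and the LPS values lay inside the range of the LPS + G-CDs values. The mean went from 151 ± 20.0 to 874 ± 21.8 FPKM (SD, n = 3), which is 2.54 on the log2 scale (SE 0.18, limma adjusted p = 1.2e-05). Of the 50-base words in the longest Actg1 transcript, 56.7% also occur in transcripts of other genes. The processed pseudogene Gm12715 shared 51.1% of them and held 191 to 1144 reads, against 6425 to 35561 reads on Actg1. Reads between Actg1 and its copies may therefore have been split by the counting, and Actb shared 14.2% of its words.

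The balance between the actins was compared within each library, where scaling between libraries has no part. Actb over Actg1 in FPKM was 7.76, 7.04 and 7.81 in control, 2.68, 2.62 and 2.57 with LPS, and 2.62, 2.36 and 2.27 with LPS + G-CDs. Every control ratio exceeded every treated ratio, so Actg1 made up a larger part of the actin transcripts after LPS. The mean log2 ratio changed from 2.91 ± 0.08 to 1.39 ± 0.03 (SD, n = 3), a difference of -1.52. The exact two-sided permutation test gave p = 0.10, the smallest value that 3 against 3 libraries allow, and 0.35 after adjustment over 7 ratio tests. With LPS + G-CDs the mean log2 ratio was 1.27 ± 0.11, which differed from LPS by -0.12 (exact permutation p = 0.20, n = 3 each, adjusted p = 0.47), and the libraries overlapped.

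**Figure D2:**
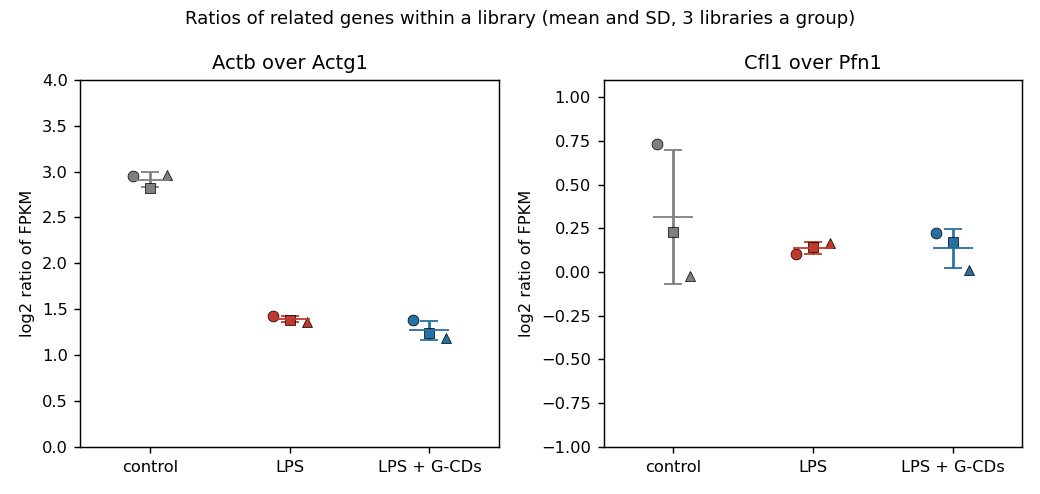
The log2 ratio of FPKM within a library is drawn for Actb over Actg1 and for Cfl1 over Pfn1, with points for libraries and bars for the mean and SD of 3 libraries. Actb over Actg1 had a mean of 2.91 in control, 1.39 in LPS and 1.27 in LPS + G-CDs, while the Cfl1 over Pfn1 ratios of the 3 groups overlapped.

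Marcksl1 rose from a moderate to a high level, and its relative Marcks was nearly silent in control cells. On the log2(FPKM + 1) scale Marcksl1 had the largest change of the 9 genes tested, while the ratio of reads was larger for Marcks. Marcksl1 (ENSMUSG00000047945, chr4:129513581-129515985, plus strand) was at 73.6, 56.5 and 79.2 FPKM in control libraries, at 1121, 1043 and 1126 FPKM with LPS and at 749, 946 and 1210 FPKM with LPS + G-CDs. Treated libraries were all far above the control libraries, and the treated groups overlapped each other. Its mean level rose from 69.8 ± 11.9 to 1097 ± 46.7 FPKM (SD, n = 3), or by 3.97 on the log2 scale (SE 0.21, limma adjusted p = 1.7e-06). Marcksl1 moved from rank 679 to rank 28 among all genes by mean FPKM.

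Marcks (ENSMUSG00000069662, chr10:37133375-37138920, minus strand) was listed at 0, 0 and 0.0277 FPKM in control libraries. These values stand for 0, 0 and 2 reads, and 0 reads allow up to 0.0395 and 0.0435 FPKM in the libraries concerned. LPS libraries held 82 to 99 reads, at 1.77, 1.47 and 1.65 FPKM. LPS + G-CDs libraries held 73 to 94 reads, at 1.28, 1.40 and 1.28 FPKM. All treated libraries were above all control libraries, and the LPS + G-CDs libraries lay below the LPS libraries. Summed over libraries and scaled to the library size behind FPKM, 278 reads with LPS against 2 in control gave a ratio of 177. Its 95% exact interval was 48.5 to 1466, counting error only, and the same ratio for Marcksl1 was 15.7 (15.3 to 16.1). That library size was 1.108 to 1.14 times the reads on genes in control and 0.929 to 0.936 times in LPS. Ratios scaled to reads on genes would be smaller. The fitted log2 fold change of Marcks, 1.38, depends on the pseudocount and is no bound, and with a pseudocount of 0.1 it was 3.99. Even with LPS its FPKM was below that of Marcksl1 by a factor of 634 to 711.

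The genes of actin monomer exchange did not pass the test. Pfn1 (ENSMUSG00000018293, chr11:70651850-70654644, minus strand) was at 369, 411 and 634 FPKM in control, at 637, 563 and 630 FPKM with LPS and at 500, 673 and 973 FPKM with LPS + G-CDs. Control replicate 3 lay inside the LPS range, and the 3 groups overlapped. The log2 fold change with LPS was 0.41 (95% interval -0.23 to 1.05, limma adjusted p = 0.31). With the gene-length trend of each library removed and the replicate number fitted as a block, a combination chosen after seeing the data, it was 0.53 (adjusted p = 0.029).

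Cfl1 (ENSMUSG00000056201, chr19:5490455-5495201, plus strand) was at 613, 483 and 623 FPKM in control, at 684, 622 and 708 FPKM with LPS and at 585, 757 and 981 FPKM with LPS + G-CDs. The groups overlapped here too. Its log2 fold change with LPS was 0.24 (95% interval -0.26 to 0.73, limma adjusted p = 0.46), and the sign turned under TPM (-0.03) and quantile normalisation (-0.15). Cfl1 shared 23.0% of its words with other genes, among them Snx32 with 29 to 45 reads and the pseudogene Gm6180 with 35 to 69 reads. Cfl1 over Pfn1 had a mean log2 ratio of 0.31 ± 0.38 in control and 0.14 ± 0.03 with LPS, a difference of -0.18 (exact permutation p = 0.70, n = 3 each).

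Of the filament bundlers, Lcp1 rose and Fscn1 stayed at the edge of detection. Lcp1 (ENSMUSG00000021998, chr14:75131101-75230842, plus strand) is the plastin of blood cells. It was at 140, 190 and 169 FPKM in control, at 289, 294 and 285 FPKM with LPS and at 230, 203 and 168 FPKM with LPS + G-CDs. LPS libraries were above all others, and the LPS + G-CDs libraries overlapped the control libraries. The log2 fold change with LPS was 0.81 (SE 0.17, limma adjusted p = 0.0062), and it fell short of the threshold under TPM (0.54, adjusted p = 0.10) and quantile normalisation (0.55, adjusted p = 0.12). The genes Gm15629 and Gm15628 overlap Lcp1 on the other strand and held at most 8 and 7 reads.

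Fscn1 (ENSMUSG00000029581, chr5:142960343-142973185, plus strand) is known as a marker of mature dendritic cells and of filopodia. It was at 0.407, 0.390 and 0.224 FPKM in control, at 1.08, 0.649 and 0.891 FPKM with LPS and at 0.712, 1.06 and 0.874 FPKM with LPS + G-CDs, or 12 to 23, 27 to 45 and 31 to 53 reads a library. Each treated library lay above each control library, and the treated groups overlapped. Read sums scaled to the library size behind FPKM gave a ratio of 2.57 for LPS over control (95% exact interval 1.84 to 3.61, counting error only). For LPS + G-CDs over LPS the ratio was 1.02 (0.781 to 1.33). Scaled to reads on genes, the ratio against control would be smaller. When no filter was applied, the log2 fold change of Fscn1 with LPS was 0.48 (limma adjusted p = 0.044).

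The membrane linker and the intermediate filament gene moved in opposite directions with LPS. Msn (ENSMUSG00000031207, chrX:96096042-96168552, plus strand) was at 111, 87.9 and 63.2 FPKM in control, at 181, 180 and 178 FPKM with LPS and at 150, 109 and 61.3 FPKM with LPS + G-CDs. The LPS values were above all others, and the libraries of both other groups spread widely. The log2 fold change with LPS was 1.07 (SE 0.31, limma adjusted p = 0.030). This call was lost without LPS replicate 1, 2 or 3 (adjusted p 0.084, 0.084 and 0.079), without control replicate 2 or 3 (0.064 and 0.095), under TPM (0.16), under quantile normalisation (0.12) and without a filter (0.072).

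Vim (ENSMUSG00000026728, chr2:13573927-13582826, plus strand) was at 120, 96.9 and 115 FPKM in control, at 53.6, 56.1 and 54.9 FPKM with LPS and at 50.7, 62.8 and 84.5 FPKM with LPS + G-CDs. All treated libraries lay below all control libraries. The log2 fold change with LPS was -0.99 (SE 0.18, limma adjusted p = 0.0035), and mean levels were 111 ± 12.2 FPKM in control and 54.9 ± 1.23 FPKM with LPS (SD, n = 3). Across 18 alternative analyses it ranged from -1.26 to -0.93 and kept its call.

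The order of levels changed with LPS. In control cells the order by mean FPKM was Actb, Cfl1, Pfn1, Lcp1, Actg1, Vim, Msn, Marcksl1, Fscn1 and Marcks. Neighbours whose libraries overlapped were Cfl1 and Pfn1, Lcp1 and Actg1, Vim and Msn, and Msn and Marcksl1. With LPS the order was Actb, Marcksl1, Actg1, Cfl1, Pfn1, Lcp1, Msn, Vim, Marcks and Fscn1, and the only neighbours that overlapped were Cfl1 and Pfn1. With LPS + G-CDs the order was the same as with LPS, but Marcksl1 and Actg1, Actg1 and Cfl1, Cfl1 and Pfn1, and Msn and Vim overlapped as neighbours. The genes whose log2(FPKM + 1) over the 9 libraries followed Marcksl1 most closely were Slfn2 (Pearson's r 0.999), Daxx (0.9985) and Tapbp (0.9981), a description in which all points share the same 3 groups. Slfn2 had a mean of 17.1 FPKM in control and 398 FPKM with LPS.

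**Figure D3:**
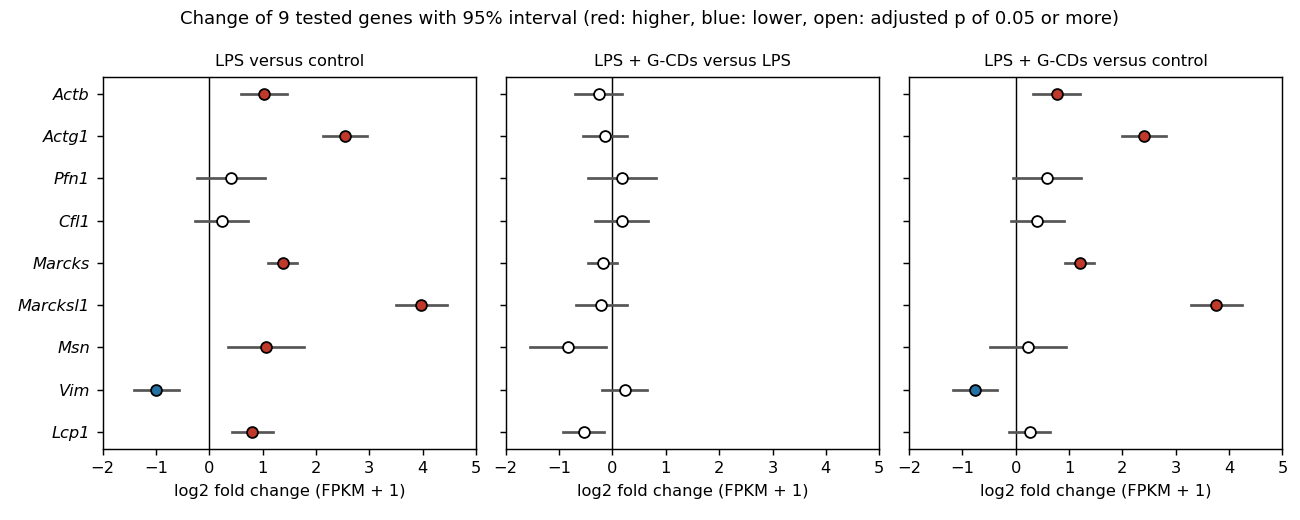
The log2 fold change in FPKM + 1 of the 9 tested genes is drawn with its 95% limma interval for the 3 comparisons, with filled points for an adjusted p under 0.05. Marcksl1 reached 3.97 for LPS versus control and 3.76 for LPS + G-CDs versus control, no point was filled for LPS + G-CDs versus LPS, and the filled Marcks points against control belong to a gene kept through its treated libraries only.

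Adding G-CDs to LPS did not move any of the 9 genes past the threshold. At the same threshold, 0 of 9 were called by limma and 0 of 9 by voom, limma's method for counts, on the reads recovered from FPKM, against 0.492% of all genes kept in the limma fit. At an unadjusted p under 0.05 there were 2, Msn and Lcp1, against 15.2% of all genes. At the study's own threshold, an unadjusted p under 0.01 with a change of more than 1.5-fold, there were again 0 of 9, against 2.49% of all genes. These counts lay near the shares of all genes and are no result about the 9 genes. Without LPS + G-CDs replicate 1 the count at the study's threshold was 2, Msn and Lcp1, both lower. The genes past it over the whole table then went from 144 higher and 144 lower to 573 and 794. With the replicate number as a block the count was 1, Msn, beside 208 higher and 280 lower over all genes. The groups were without overlap for 4 genes, Actb, Marcks, Msn and Lcp1, each of them lower with G-CDs, against 27.9% of all genes in either direction. The median log2 fold change of the 9 genes was -0.18, beside 0.02 over all genes. A p above the threshold does not show that the groups were alike. The intervals below are not adjusted for the number of genes, and they take a gene's spread from all groups together. They hold the spread between libraries only and leave out the choice of scaling and the length trend. Sizes outside them, or no change, are therefore not excluded.

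The moesin and L-plastin genes had the lowest estimates. Mean Msn was 180 ± 1.47 FPKM with LPS and 107 ± 44.5 FPKM with LPS + G-CDs (SD, n = 3), and the log2 fold change was -0.84 (95% interval -1.55 to -0.13, limma unadjusted p = 0.026, adjusted p = 0.30). Mean Lcp1 was 290 ± 4.61 and 200 ± 31.1 FPKM, and the log2 fold change was -0.54 (95% interval -0.92 to -0.16, limma unadjusted p = 0.011, adjusted p = 0.25). Both differences stayed negative in all 18 alternative analyses, from -1.13 to -0.49 for Msn and from -0.74 to -0.30 for Lcp1, and none had an adjusted p under 0.05.

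For the actins the estimates were smaller. Actb had a log2 fold change of -0.26 (95% interval -0.69 to 0.18) and Actg1 one of -0.14 (-0.55 to 0.28). Marcksl1 stood at -0.21 (-0.68 to 0.27) and Marcks at -0.18 (-0.45 to 0.09). At its low level the pseudocount compresses the Marcks difference. Read sums scaled to the library size behind FPKM gave 0.814 for LPS + G-CDs over LPS (95% exact interval 0.682 to 0.970, counting error only). On the log2(FPKM + 1) scale, the upper bounds of these 4 intervals reach 0.28 at most, and the lowest of the lower bounds is -0.69. Marcksl1 over Marcks differed between the groups by a log2 ratio of 0.09 (exact permutation p = 0.90, n = 3 each), and in control a ratio existed in replicate 3 alone, since Marcks was at 0 in the other libraries, so control was not compared. Vim had a log2 fold change of 0.23 (-0.19 to 0.65), Pfn1 of 0.18 (-0.46 to 0.82) and Cfl1 of 0.17 (-0.32 to 0.67). The positive signs of Pfn1 and Cfl1 turned without LPS + G-CDs replicate 3 (-0.071 and -0.011) and under quantile normalisation (-0.14 and -0.15).

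The 3 LPS + G-CDs libraries differed from each other along gene length. Genes kept were divided by length into 4 classes of equal size. In the shortest class, with a median of 882 bases, LPS + G-CDs replicate 1 lay at a median of -0.27 from its group mean in log2(FPKM + 1) and replicate 3 at 0.30. In the longest class, with a median of 8386 bases, they lay at 0.24 and -0.23, while the LPS libraries stayed within -0.03 and 0.02 in both classes. Control replicate 3 lay at 0.18 and -0.19. Most of the genes followed here deviated with the sign of their length class, several of them by more than its median. In replicate 3, Marcksl1 (1605 bases), Cfl1 (2354 bases) and Pfn1 (2405 bases) were 0.35, 0.37 and 0.50 above the group mean, while Msn (6327 bases) and Lcp1 (9504 bases) lay at -0.70 and -0.24. Vim, at 4743 bases, ran against its length class, at -0.34 in replicate 1 and 0.38 in replicate 3, where the class median lay at 0.03 and -0.04, and Marcks, at 4048 bases, stayed within -0.02 and 0.05. Over the 9 genes, Pearson's r between deviation and log10 length was 0.76, 0.51 and -0.73 in LPS + G-CDs replicates 1, 2 and 3, -0.25, 0.62 and -0.81 in those of LPS, and 0.13, 0.77 and -0.63 in those of control, so strong values were not limited to LPS + G-CDs. Over all genes kept, r was 0.27, 0.07 and -0.3 in LPS + G-CDs, within -0.01 and 0.01 in LPS, and 0.15, 0.13 and -0.25 in control. These values describe points that share a library.

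With the length trend removed, the estimates between LPS + G-CDs and LPS moved down for the genes shorter than Vim and toward 0 for Msn and Lcp1. Marcksl1 stood at -0.48 where it had been at -0.21, Actb at -0.42 where it had been at -0.26, and Actg1 at -0.30 where it had been at -0.14. Pfn1 and Cfl1 stood at -0.02 and -0.03, Msn at -0.73 and Lcp1 at -0.30. The median of the 9 genes was -0.30 on this scale, beside 0.0048 over all genes. Groups were then without overlap for 6 of the 9 genes, all lower with G-CDs, namely Actb, Actg1, Marcks, Marcksl1, Msn and Lcp1, against 28.9% of all genes in either direction. None of the 9 was called, and the lowest limma adjusted p was 0.12, for Marcksl1. The part of gene length in these results was not tested beyond that adjustment.

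**Figure D4:**
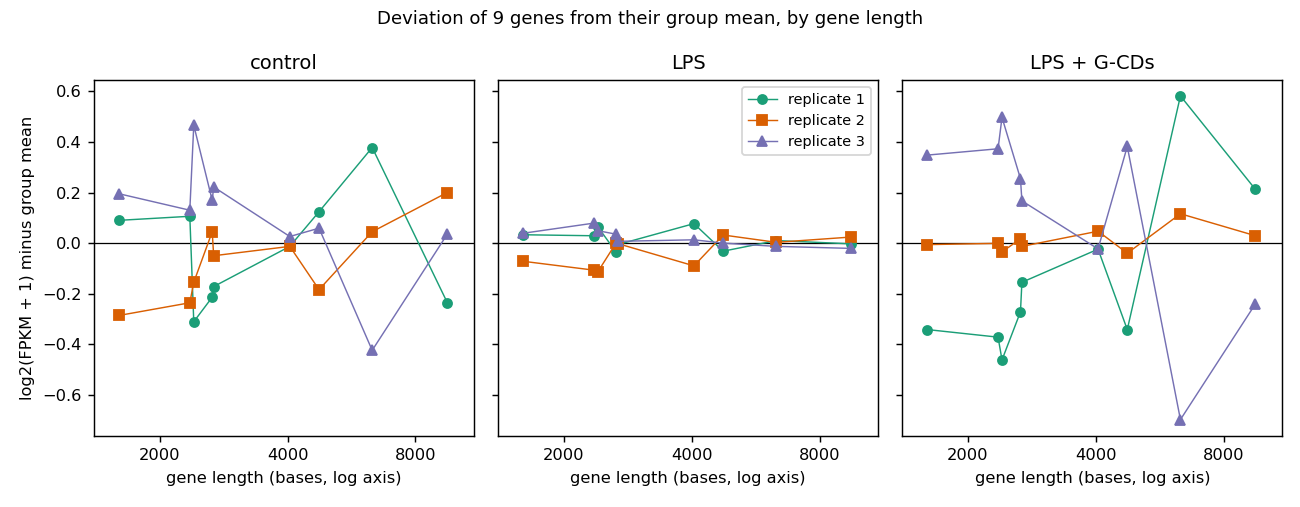
The deviation of 9 genes from their group mean in log2(FPKM + 1) is plotted against gene length on a log axis, with a line for each of the 3 libraries of a group. In LPS + G-CDs, replicate 3 was highest for Pfn1 at 0.50 and lowest for Msn at -0.70, and replicate 1 was at -0.46 and 0.58 for these genes, while all LPS values lay between -0.113 and 0.079.

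Between LPS + G-CDs and control, 3 of the 8 genes present in every group were higher and 1 was lower, against 12.8% and 12.4% of all genes kept. The control libraries are those already used above, so this comparison is not independent of LPS versus control. Marcksl1 had a log2 fold change of 3.76, Actg1 of 2.40 and Actb of 0.77 (limma adjusted p of 2.8e-06, 2.0e-05 and 0.019). Marcks had 242 reads with LPS + G-CDs against 2 in control. Scaled to the library size behind FPKM this was a ratio of 144 (95% exact interval 39.4 to 1194, counting error only). Vim stood at -0.76 (adjusted p = 0.016). Lcp1 at 0.27 and Msn at 0.23 did not pass (adjusted p 0.29 and 0.64), nor did Pfn1 at 0.59 and Cfl1 at 0.41 (0.17 and 0.21). The groups were without overlap for 4 of the 8 genes, against 34.3% of all genes. Actb and Vim lost their calls without LPS + G-CDs replicate 2 (adjusted p 0.075 and 0.061) and when only the 6 libraries compared were fitted (0.11 and 0.069), and each of these left Marcksl1 and Actg1 called. Actb also lost its call without control replicate 2 (0.056), under TPM (0.066) and with no filter (0.35). Signs turned under both TPM and quantile normalisation for Cfl1, Msn and Lcp1, and under quantile normalisation for Actb and Pfn1.

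Other genes of the actin system were taken from 12 lists by role. Of 205 listed genes, 204 were found and 152 passed the filter, and between LPS and control 48 of these were higher and 23 lower. Among them, Cdc42ep2 and Nckap1, which were higher, had a mean under 1 FPKM in control, and Myo6, which was lower, had one under 1 FPKM with LPS, so these 3 passed the filter through the group where they were high. By share of all genes kept, 15.8% were higher and 15.6% lower. With 1 library of these groups left out, 36 to 44 were higher and 12 to 20 lower, and the lower count fell to 12 without LPS replicate 2, to 14 without LPS replicate 3, and to 15 without LPS replicate 1 or control replicate 2. Over the same omissions, calls among all genes fell from 1827 higher and 1803 lower to 1270 to 1676 higher and 1191 to 1458 lower. The median log2 fold change of the related genes was 0.27, beside 0.02 over all genes. TPM changed the split of 48 and 23 to 28 higher and 35 lower, where 8.76% of all genes were higher and 26.8% lower. Quantile normalisation changed it to 41 and 31, where the shares were 14.1% and 20.3%. The 5 genes with the largest change were Egr1, an early response transcription factor gene, Rhoc and Rnd1, which encode small GTPases, Cdc42ep2, which encodes an effector of Cdc42, and Fyb, which encodes an adaptor of adhesion signaling. Rhoc was at 25.2 ± 5.33 FPKM in control and 247 ± 19.4 FPKM with LPS (SD, n = 3), and rose by 3.26 on the log2 scale (SE 0.23, limma adjusted p = 1.0e-05). Egr1, Fyb and Rnd1 had log2 fold changes of 3.31, 2.68 and 2.21. Egr1 was at 0.690 to 1.41 FPKM in control, so it too needed treated libraries to pass the filter. Cdc42ep2, kept through its treated libraries, was at 0.158 to 0.322 FPKM in control, or 20 reads in all, and at a mean of 7.31 FPKM with LPS, or 459 reads, which is a description and no test.

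Apart from the 5 genes above, the genes named for each list were singled out after their values were seen. Each count below is to be set beside the 15.8% of all genes higher and 15.6% lower, or 8.76% and 26.8% under TPM. The list for filament bundling and crosslinking, the role of Lcp1 and Fscn1, also holds genes of other filament-binding proteins, such as the tropomyosin gene Tpm4. In this list, 8 of 16 genes other than Lcp1 and Fscn1 were higher with LPS and 0 lower, among them Iqgap1 (1.28) and Tpm4 (1.17). Under TPM these counts were 3 and 2. Among podosome and adhesion genes 9 of 18 were higher and 0 lower, among them Zyx (1.72) and Vasp (1.24), and 6 and 1 under TPM. The Arp2/3 complex, which nucleates branched filaments, had 2 of 9 higher, Actr3 (1.13) and Arpc5 (0.69), and 1 lower, Arpc5l (-0.77), and 2 and 4 under TPM. In the monomer binding and severing group, the group of Pfn1 and Cfl1, 3 of 20 were higher, Wdr1 (1.03), Dstn (0.59) and Twf1 (0.44), and 6 were lower, among them the severing gene Gsn (-1.03). Membrane and cortex linkers, the group of Msn, had 2 of 15 higher, Cd44 (2.06) and Anxa1 (0.90), and 3 lower, Ahnak (-2.06), Add3 (-1.36) and Add1 (-0.64). The counts of the Arp2/3 and linker lists in both directions, and the higher count of the monomer binding list, lay near the shares of all genes. They are no result about these lists. The intermediate filament group, with Vim left out, had 1 of 5 higher, Nes (0.66), and 3 lower, the lamin genes Lmnb2 (-0.93), Lmna (-0.91) and Lmnb1 (-0.65). Under TPM the counts were 1 higher and 7 lower for monomer binding, 2 and 6 for the linkers and 0 and 3 for intermediate filaments. Of serum response factor and its coactivators, Egr1 included as a target, Srf rose (0.45) and Mkl1 fell (-0.79), and Srf lost its call under TPM. None of the 4 muscle actin genes passed the filter.

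Lists of nucleation, myosin and capping genes held genes of both directions. They are short lists, set beside 15.8% of all genes higher and 15.6% lower. Nucleation promoters and formins had 7 of 18 higher and 2 lower, Inf2 (-1.98) and Fmnl3 (-0.36). The 7 include Nckap1, which had a mean under 1 FPKM in control and passed the filter through its treated libraries. Cortical myosins had 3 of 13 higher, Myo10 (2.09), Myo1e (1.97) and Myo1d (1.74), and 3 lower, Myo1f (-2.03), Myo1c (-0.55) and the low Myo6 (-0.51). Capping genes had 2 of 7 higher, Tmod3 (0.53) and Capza2 (0.39), and 1 lower, Eps8 (-0.89). Both counts of the myosin and capping lists, and the lower count of the nucleation list, lay near the shares of all genes. They are no result about these lists. Under TPM the counts were 4 higher and 2 lower for nucleation, 3 and 3 for the myosins and 0 and 1 for capping.

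Between LPS + G-CDs and LPS, 0 of the 152 related genes were called by limma or by voom on the reads, against 0.492% of all genes in the limma fit. A count of 0 is near that share and no result about these genes. At an unadjusted p under 0.05 there were 35, against 15.2% of all genes. Without LPS + G-CDs replicate 1 there were 7 calls among the related genes, and 276 over all genes where there had been 57. At an unadjusted p under 0.01 with over 1.5-fold change there were 5 of 152, near the 2.49% of all genes past it and so no result about these genes. Named after their values were seen, they were Myo1d (-1.0), Egr1 (-0.79), Rhoq (-0.71) and Actn1 (-0.66), which were lower, and Rhob (0.63), which was higher. Between LPS + G-CDs and control, 31 of the 152 genes were higher and 22 lower, against 12.8% and 12.4% of all genes kept. With only the 6 libraries compared there were 22 and 14, where calls over all genes fell from 1488 and 1439 to 951 and 838. The counts of 31 and 22 again hold Cdc42ep2, Nckap1 and Myo6, which were under a mean of 1 FPKM in the group where they were low. Under TPM these counts were 15 and 41, where 6.52% of all genes were higher and 28.1% lower, and under quantile normalisation 25 and 36, where the shares were 11.3% and 15.2%. The 5 largest changes by the same rule were those of Rhoc (3.26), Cdc42ep2 (3.03), Ahnak (-2.90), Egr1 (2.52) and Rnd1 (2.36). Since Cdc42ep2 passed the filter through its treated libraries, its value is a description and no test. Ahnak, which encodes a large scaffold of the membrane cortex, was at 52.0 ± 32.3 FPKM in control and at 5.70 ± 3.50 FPKM with LPS + G-CDs (SD, n = 3 each, limma adjusted p = 0.0026).

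**Figure D5:**
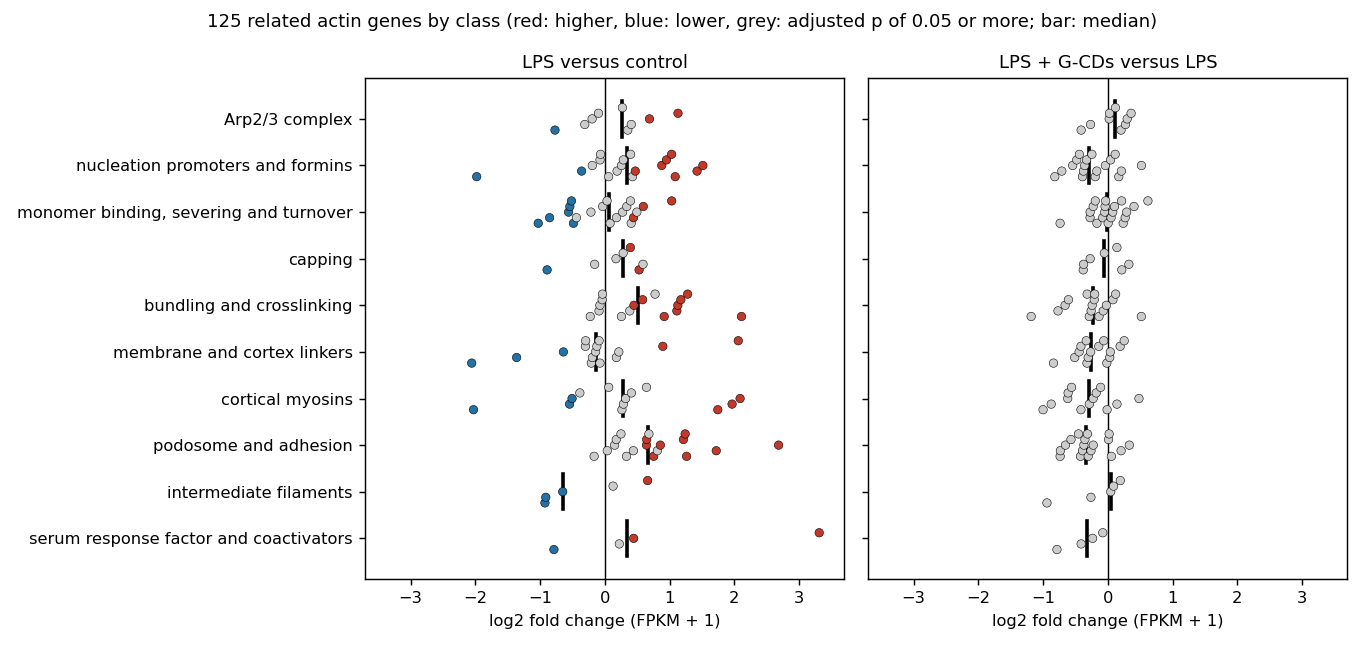
Each point is the log2 fold change in FPKM + 1 of 1 of the 125 related actin genes in 10 of the lists, by role, for LPS versus control (left) and LPS + G-CDs versus LPS (right), with black bars for medians. On the left, 39 genes are red (higher) and 20 blue (lower) at an adjusted p under 0.05, and on the right all genes are grey.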

How the data were processed

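RNA of 9 RAW264.7 samples was enriched for poly(A), and libraries were sequenced on an Illumina instrument. The authors deposited FPKM values per gene and library. Builds named by the submitters' processing notes are GRCm38 and mm10. The aligner, counter and strand setting are not given in the sources used here. Coordinates and strand equaled GENCODE M21 for 53462 of 54409 genes, and for all 10 genes described. Reads were recovered as FPKM times gene length (100.0% whole within 0.05 reads). The library size behind FPKM was 1.108 to 1.14 times the reads on genes in control libraries. It was 0.929 to 0.936 times in LPS and 0.88 to 0.98 times in LPS + G-CDs. This scaling differed between the groups, and relative to reads on genes it lowered FPKM in control against the treated libraries. Every column belonged to a sample of the series (0 columns of other samples).

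The 11585 genes that reached 1 FPKM in 3 or more of the 9 libraries were fitted as log2(FPKM + 1) with limma 3.58.1 in R 4.3.3 (lmFit, eBayes with trend, 3 groups in 1 model, two-sided, Benjamini-Hochberg adjustment over all genes). A fold change on this scale understates that of low genes. Ratios within a library were compared by exact permutation. For Marcksl1 over Marcks a single comparison could be made, so 7 tests were adjusted together and not the 9 planned. Tables were prepared with Python 3.11.15 and pandas 2.3.3. On simulated data, the fit for LPS versus control recovered 55% of genes changed 2-fold and 88% of those changed 4-fold among 11370 genes, and 7.7% of its calls were unchanged genes. For LPS + G-CDs versus LPS these shares were 68%, 93% and 7.5% among 11360 genes, and for LPS + G-CDs versus control 61%, 93% and 4.3% among 11362 genes. The simulated counts had the same spread beyond counting error for every gene and group, and no length trend. The real libraries differed in both respects, so the shares describe the simulation and are not estimates for the real fits.

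Same-numbered LPS and control libraries deviated together (r = 0.103, 0.137 and 0.113, all over 0.1), so a replicate block was fitted as an alternative. The other comparisons did not meet this rule. The pseudocount was also set to 0.1 and the filter to none or to 5 FPKM. Libraries were rescaled by TPM, by median of ratios or by quantiles. The remaining alternatives were a fit of the 6 libraries compared, a fit with no mean-variance trend, voom on reads, length trends removed, and each library left out. The length trend removed together with the block, and the counts against control that leave out Marcks, were added after seeing the data. All 10 genes are named, with the 5 largest changes among related genes in each comparison and the 3 genes most alike to the gene with the largest change. Some items among the related genes are not reported here. The genes, lists and motifs were chosen with earlier results of these data known.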

Additional observations from a re-analysis of the deposited data

How the results depend on the processing

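Calls and directions of the 9 tested genes were recomputed under 18 alternatives. Leaving out Marcks, which passed the filter only through treated libraries, 129 of 144 such values kept their direction and side of the threshold for LPS versus control, 135 of 144 for LPS + G-CDs versus LPS and 127 of 144 for LPS + G-CDs versus control. The Actg1 and Marcksl1 calls against control held under all 18 alternatives. Quantile normalisation left 3 of the 8 other genes called between LPS and control (4 with Marcks), where 14.1% of all genes were higher and 20.3% lower. The 6 libraries alone left 2 between LPS + G-CDs and control (3 with Marcks), where calls over all genes fell to 951 higher and 838 lower. Under TPM, which moved the median of all genes to -0.21, -0.12 and -0.33 in the 3 comparisons, and changed the split of all calls from 1827 higher and 1803 lower to 1015 and 3106 for LPS versus control and from 1488 and 1439 to 755 and 3255 for LPS + G-CDs versus control, signs turned for Cfl1 with LPS (-0.034) and, for LPS + G-CDs versus control, for Cfl1 (-0.0285), Msn (-0.20) and Lcp1 (-0.17). Relative to the median of all genes these 4 values under TPM were 0.18, 0.31, 0.13 and 0.16. Under quantile normalisation signs turned for Cfl1 with LPS (-0.15), for Pfn1 (-0.14) and Cfl1 (-0.15) between LPS + G-CDs and LPS, and for Actb (-0.10), Pfn1 (-0.0875), Cfl1 (-0.30), Msn (-0.073) and Lcp1 (-0.19) between LPS + G-CDs and control. Relative to the median these 8 values stayed negative, at -0.0836 for Cfl1 with LPS, at -0.15 for Pfn1 and -0.17 for Cfl1 between LPS + G-CDs and LPS, and at -0.0485, -0.0405, -0.25, -0.026 and -0.14 between LPS + G-CDs and control. The cause of these turns was not tested.

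With the length trend removed, Pfn1 (-0.0182) and Cfl1 (-0.0264) turned between LPS + G-CDs and LPS, with or without the replicate block, and 1 related gene was called. The Marcksl1 over Marcks difference was -0.0278 with a pseudocount of 1 on both genes and -0.27 on that same scale with the length trend removed as well, so most of its move from 0.09 went with the trend and part with the pseudocount. With each library left out it ranged from -0.10 to 0.24, Cfl1 over Pfn1 from -0.34 to 0.0339 (LPS versus control), from -0.0475 to 0.0597 (LPS + G-CDs versus LPS) and from -0.35 to 0.0314 (LPS + G-CDs versus control). Over the same omissions, related genes called between LPS + G-CDs and LPS ranged from 0 to 7, and genes called between LPS + G-CDs and control from 2 to 4 without Marcks and from 3 to 5 with it. Calls over all genes between LPS + G-CDs and control ranged from 1016 to 1685 higher and from 900 to 1562 lower. Log2 fold changes between LPS + G-CDs and LPS ranged from -0.26 to 0.0006 for Actg1, from -0.071 to 0.41 for Pfn1 and from -0.0114 to 0.36 for Cfl1, and that of Msn between LPS + G-CDs and control from -0.06 to 0.58. Where an omission left 2 libraries in a group, the model took its spread from all groups. All genes called between LPS + G-CDs and LPS, 57 in the fit described, numbered 10 to 276 over the omissions, 25 with a pseudocount of 0.1 or the 6 libraries alone, 37 under TPM and 92 with length trends removed.

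The replicate block changed no call of the 8 genes without Marcks, with 6, 0 and 4 called as before, and moved related calls from 71 to 80 and from 53 to 65. Calls over all genes rose as well, from 1827 higher and 1803 lower to 2115 and 1989 for LPS versus control. For LPS + G-CDs versus control they rose from 1488 and 1439 to 1729 and 1618. LPS + G-CDs libraries correlated with same-numbered LPS libraries at r of 0.095, 0.08 and 0.143 and with control libraries at 0.28, 0.057 and 0.653. The 3 libraries of a group limit every statement, and the depth limits Marcks in control (0 to 2 reads) and Fscn1 (12 to 53 reads).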
